A study of Mus musculus with 37 samples.

Results

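Immediate early genes are the genes that a neuron switches on within minutes of a burst of activity, before any new protein has to be made. Calcium and growth factor signals reach them through kinases that phosphorylate CREB, which binds the cAMP response element (CRE), and the partners of SRF, which binds the CArG box. Their products are either transcription factors that drive a later set of genes or proteins that act directly at synapses and on signalling, and in the hippocampus their RNA is widely used as a trace of recent firing. Their RNA is short-lived, so that a level in dissected tissue reflects a brief period before dissection. The 10 genes described here come from a list of names rather than from a threshold on these values. They are Fos, Fosb and Junb (subunits of the AP-1 transcription factor), Egr1, Egr2 and Egr4 (zinc finger transcription factors), Nr4a1 (an orphan nuclear receptor), Arc (a synaptic protein that takes part in the removal of AMPA receptors), Dusp1 (a phosphatase that switches off MAP kinases) and Ier2 (a nuclear protein of less well known function). All 10 were among the 48795 genes of the count table, and all 10 passed the filter on low counts that left 16799 genes for testing.

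RNA was taken from the whole hippocampus of male mice, with 3 control and 3 Kdm1a-ifKO libraries, each labelled as a separate replicate. The Kdm1a-ifKO mice carried floxed Kdm1a alleles (exons 5 to 6) and the Camk2a-creERT2 transgene, which drives tamoxifen-inducible recombination in forebrain excitatory neurons and is not active in glia or vessels. Controls, labelled WT, were littermates that the study's methods describe as lacking the Cre transgene, and both groups received tamoxifen (5 administrations at 8 weeks of age). The age at dissection of these 6 mice, the interval since handling and the time of day were not given in the sources used here, and no stimulus was applied, so that the values are those of mice as they were when dissected. In whole tissue, fewer cells of a type and less RNA per cell cannot be told apart.

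The libraries were of like depth, with between 18985542 and 19469947 counts and between 23412 and 23939 genes detected. Kdm1a, the histone demethylase that was deleted, had 79.5, 81.1 and 79.6 CPM (read counts scaled to a common library size) in the controls and 39.3, 36.9 and 38.4 CPM in the Kdm1a-ifKOs. The groups were far apart, with a log2 fold change of -1.07 ± 0.0559 (SE; edgeR quasi-likelihood test with Benjamini-Hochberg adjustment, adjusted p = 6.24e-08). Each library thus matched its label. Excitatory neuron markers such as Slc17a7 and Camk2a were abundant in each library, with a summed level of 10 markers between 7720 and 8517 CPM.

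Promoter sequences of 7 of the 10 genes were found in a RefSeq table of the GRCm38.p6 build (Fos, Fosb, Junb, Egr2, Egr4, Nr4a1 and Dusp1), and the 250 bases before each start site were searched. The motifs were the CArG box (searched by name on both strands), the CRE (TGACGTCA, palindromic), the CRE half-site (TGACG or, on the other strand, CGTCA; every CRE also holds 2 half-sites that overlap), the EGR site (GCGTGGGCG, both strands) and the TATA box (TATAAA, sense strand). The 4 sequences shown are in the sense direction, 5′ to 3′, from a pair of genes that peaked in a control library (Egr2 and Nr4a1) and a pair that peaked in a Kdm1a-ifKO library (Fos and Dusp1), with CArG boxes, CREs and half-sites in capitals. The windows are chr10:67537619-67537868 on the plus strand for Egr2, chr15:101266596-101266845 on the plus strand for Nr4a1, chr12:85473640-85473889 on the plus strand for Fos and chr17:26508520-26508722 on the minus strand for Dusp1, the last shortened where an annotated exon begins.
Egr2: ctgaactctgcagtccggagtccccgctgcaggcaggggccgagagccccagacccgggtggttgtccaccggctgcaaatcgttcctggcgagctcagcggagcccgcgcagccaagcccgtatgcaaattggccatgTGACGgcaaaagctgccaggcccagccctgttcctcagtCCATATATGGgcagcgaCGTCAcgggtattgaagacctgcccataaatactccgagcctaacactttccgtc
Nr4a1: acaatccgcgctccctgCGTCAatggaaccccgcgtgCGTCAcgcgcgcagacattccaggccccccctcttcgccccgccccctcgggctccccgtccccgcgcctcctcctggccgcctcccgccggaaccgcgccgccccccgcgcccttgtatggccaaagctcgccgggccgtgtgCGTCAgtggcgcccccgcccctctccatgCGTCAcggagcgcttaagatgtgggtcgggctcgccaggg
Fos: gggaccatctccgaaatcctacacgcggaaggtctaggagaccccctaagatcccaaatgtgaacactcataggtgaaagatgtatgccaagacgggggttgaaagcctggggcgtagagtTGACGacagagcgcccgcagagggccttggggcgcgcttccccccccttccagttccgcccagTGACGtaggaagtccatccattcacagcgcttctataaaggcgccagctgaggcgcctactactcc
Dusp1: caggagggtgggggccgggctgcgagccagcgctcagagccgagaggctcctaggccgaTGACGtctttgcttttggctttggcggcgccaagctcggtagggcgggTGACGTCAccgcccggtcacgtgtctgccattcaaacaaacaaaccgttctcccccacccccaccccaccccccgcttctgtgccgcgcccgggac

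The CRE half-site was present in at least 1 window of 7 of the 7 genes, and for Egr2 in the windows of 3 of its 5 start sites. Counted per window rather than per gene, it was in 17.8% of 32851 promoters of the same length. In Fos it lay 129 and 66 bases before the start site, with a TATA box at 33 bases. Nr4a1 held 4 half-sites, at 233, 213, 69 and 40 bases. Dusp1 was the gene with a full CRE, 143 bases before its start site, a motif found in 1.55% of promoters. The CArG box, found in 1.47% of promoters, was present at 4 of the 5 listed start sites of Egr2 and 72 bases before the start site shown, where half-sites flanked it at 111 and 55 bases. The 3 Egr2 windows with half-sites overlap and hold the same half-sites and the same CArG box, so they are not separate finds. The EGR site was in none of the 7 genes' windows and in 0.536% of all promoters. These matches describe letters in a window and say nothing of binding. Sites more than 250 bases before a start site were not searched. For the remaining genes no window is shown.

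**Figure D1:**
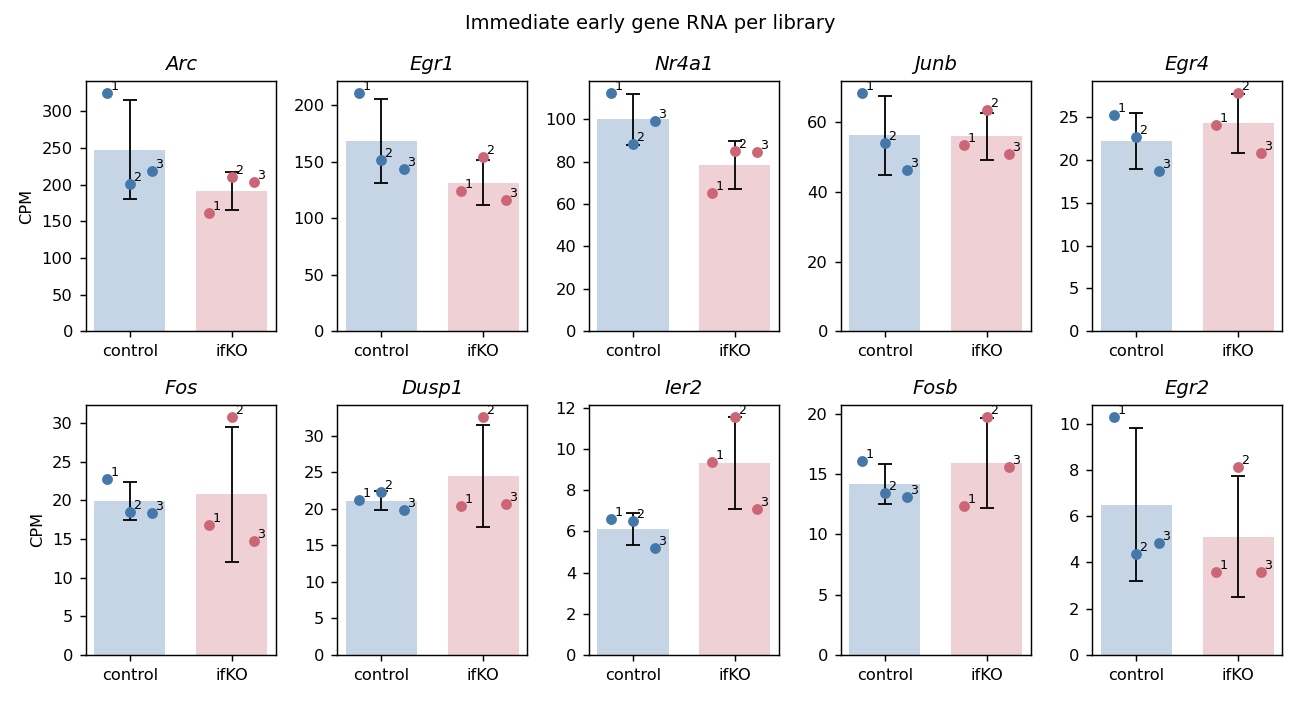
Scaled read counts (CPM, y axis) of each immediate early gene in the control and Kdm1a-ifKO (ifKO) libraries. Points are libraries numbered by replicate, bars the mean of 3 libraries and whiskers the SD. The genes run from the highest to the lowest level per length in controls. Control replicate 1 and Kdm1a-ifKO replicate 2 sit at the top of their groups in nearly every panel, and the groups overlap for all genes except Nr4a1 and Ier2.

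None of the 10 immediate early genes passed the test between genotypes (edgeR quasi-likelihood test, adjusted p under 0.05), while 8.85% of all tested genes did, 6.04% higher and 2.82% lower after the deletion. At an unadjusted p under 0.05 there were 2 of the 10, Ier2 and Nr4a1, against 24.5% of tested genes, and with DESeq2 both had an adjusted p under 0.05. Fold changes pointed up for 5 genes and down for 5, with a median log2 fold change of 0.03 against -0.003 over all tested genes. The 3 control and the 3 Kdm1a-ifKO values did not overlap for 2 of the 10 genes, against 30.0% of all tested genes. With so few libraries the intervals are wide, and a value that missed the threshold does not show equal levels.

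Among the AP-1 subunits, Fos (chr12:85473890-85477273, plus strand) had 22.7, 18.5 and 18.4 CPM in control replicates 1 to 3 and 16.8, 30.8 and 14.7 CPM in Kdm1a-ifKO replicates 1 to 3. The highest and the lowest values were both in Kdm1a-ifKOs, on either side of the controls. Its log2 fold change was 0.07 ± 0.325 (SE), with a 95% interval of 0.582- to 1.88-fold (adjusted p = 0.931, edgeR). Without Kdm1a-ifKO replicate 2 the fold change was -0.34. Fosb (chr7:19302696-19310051, minus strand) had 16.1, 13.4 and 13.1 CPM in controls and 12.3, 19.8 and 15.6 CPM in Kdm1a-ifKOs. It again ranged more widely in Kdm1a-ifKOs, with a log2 fold change of 0.17 ± 0.163 (adjusted p = 0.587, edgeR) that was -0.02 without Kdm1a-ifKO replicate 2. Junb (chr8:84974484-84978718, minus strand) had 68.5, 54.2 and 46.2 CPM in controls against 53.4, 63.7 and 51.0 CPM in Kdm1a-ifKOs. Its log2 fold change of -0.01 ± 0.158 had the interval 0.764- to 1.30-fold (adjusted p = 0.987, edgeR), and its sign was positive under 6 alternatives. Junb overlaps Prdx2 on the opposite strand in the annotation, and the strand setting of the counting was not given in the sources used here, so reads of the overlap cannot be told apart.

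Of the zinc finger factors, Egr1 on chromosome 18 was the most abundant, with 211, 152 and 143 CPM in controls and 124, 154 and 116 CPM in Kdm1a-ifKOs. Kdm1a-ifKO replicate 2 lay inside the control range and the other two Kdm1a-ifKO libraries lay below it. The log2 fold change was -0.36 ± 0.196, with an interval of 0.551- to 1.10-fold (adjusted p = 0.344, edgeR). It was -0.16 without control replicate 1 (adjusted p = 0.438, edgeR), and with single libraries removed it ran from -0.49 to -0.16. Without both control replicate 1 and Kdm1a-ifKO replicate 2, an alternative chosen after seeing the values, it was -0.29 with an adjusted p of 0.0342 (edgeR), the single alternative of 13 under 0.05, and over these alternatives the adjusted p ran from 0.0342 to 0.604. Egr2 (chr10:67535475-67542188, plus strand), which is also known for its part in myelination outside the brain, was the least abundant gene per length and the most uneven. It had 10.3, 4.36 and 4.84 CPM in controls and 3.60, 8.12 and 3.59 CPM in Kdm1a-ifKOs, so that one library of each genotype stood at about the same distance above its group. The underlying counts were 197, 83, 90, 70, 160 and 70. Its log2 fold change of -0.35 ± 0.516 spanned 0.314- to 1.97-fold (adjusted p = 0.743, edgeR) and was 0.15 without control replicate 1. Egr4 (chr6:85511121-85513589, minus strand) had the smallest spread by the edgeR estimate given further on, with 25.2, 22.7 and 18.8 CPM in controls and 24.1, 27.8 and 20.9 CPM in Kdm1a-ifKOs (log2 fold change 0.13 ± 0.128, adjusted p = 0.597, edgeR). This small difference ran from 0.01 to 0.23 when single libraries were removed, the lowest in the absence of Kdm1a-ifKO replicate 2 (0.02 for control replicate 3) and the highest in the absence of control replicate 1 (0.22 for Kdm1a-ifKO replicate 3).

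Arc (chr15:74669083-74672570, minus strand) had 325, 201 and 218 CPM in controls and 162, 209.9 and 203 CPM in Kdm1a-ifKOs. Most of the difference came from the top control library and the bottom Kdm1a-ifKO library, and the other 4 values lay between 201 and 218 CPM. The log2 fold change was -0.37 ± 0.233, with a 95% interval from -0.99 to 0.24 on the log2 scale (adjusted p = 0.413, edgeR), and it was -0.13 with the weakest and -0.51 with the strongest choice of 1 library left out. Nr4a1 (chr15:101254269-101274795, plus strand) lies on the same chromosome. It had 112, 88.4 and 99.3 CPM in controls and 65.2, 84.9 and 84.7 CPM in Kdm1a-ifKOs. All 3 Kdm1a-ifKO values were below the lowest control, with a gap of a few CPM between 84.9 and 88.4. Its log2 fold change of -0.35 ± 0.125 had the interval 0.638- to 0.960-fold (unadjusted p = 0.0251 and adjusted p = 0.138, edgeR). The adjusted p was under 0.05 in 2 of 13 alternatives, with DESeq2 and without the filter on low counts, and ran from 7.68e-06 to 0.385 over them.

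Dusp1 (chr17:26505590-26562128, minus strand) had 21.2, 22.4 and 19.9 CPM in controls and 20.4, 32.6 and 20.7 CPM in Kdm1a-ifKOs. Kdm1a-ifKO replicate 2 stood apart and the other 5 values lay within 19.9 to 22.4 CPM. The log2 fold change of 0.22 ± 0.193 (adjusted p = 0.553, edgeR) was -0.04 without that library. One annotated Dusp1 transcript extends over Ergic1 on the opposite strand. Ier2 (chr8:84661331-84662852, minus strand) had 6.59, 6.51 and 5.21 CPM in controls and 9.36, 11.6 and 7.09 CPM in Kdm1a-ifKOs, from 97 to 126 and from 138 to 228 counts. It was higher in 3 of 3 Kdm1a-ifKO libraries than in any control, and it came closest to the threshold. Its log2 fold change was 0.61 ± 0.175, with an interval of 1.17- to 1.99-fold (unadjusted p = 0.00456 and adjusted p = 0.0509, edgeR). Over 13 alternatives the adjusted p lay between 0.000332 and 0.167 and was under 0.05 in 6, so the call turned on the setting, while the log2 fold change was 0.43 at the lowest and 0.77 at the highest when single libraries were removed.

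**Figure D2:**
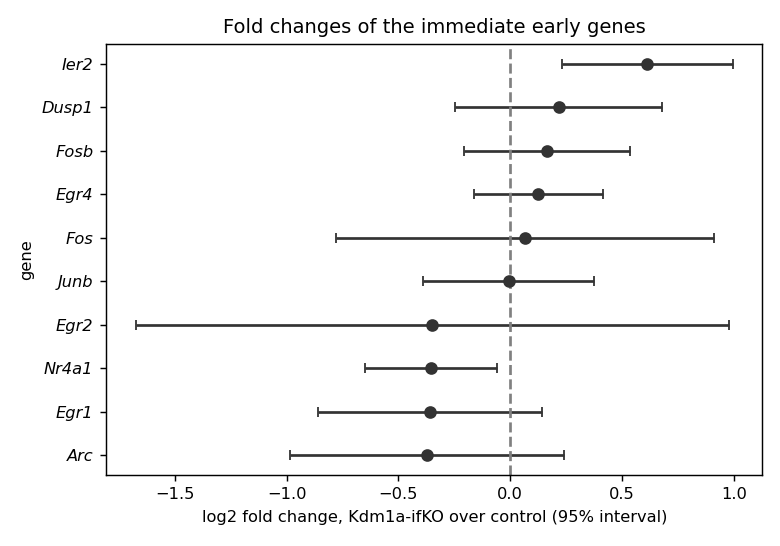
Log2 fold change of Kdm1a-ifKO over control for each immediate early gene (x axis), ordered by its size, with the 95% interval of the edgeR fit over 3 and 3 libraries. The intervals of Ier2 (0.23 to 1.00) and Nr4a1 (-0.65 to -0.06) leave out 0, and that of Egr2 is the widest, from -1.67 to 0.98.

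Levels between genes were compared per length, in TPM, which divides the counts by the summed exon length before scaling. In controls Arc came first with 323 ± 88.9 TPM (SD, n = 3), followed by Egr1 with 149.6 ± 33.4, Nr4a1 with 113 ± 13.9 and Junb with 97.3 ± 19.9 TPM. A middle group held Egr4 with 41.1 ± 6.17, Fos with 33.6 ± 4.29 and Dusp1 with 25.4 ± 1.54 TPM. Ier2 with 15.9 ± 2.07, Fosb with 9.02 ± 1.08 and Egr2 with 7.61 ± 3.90 TPM came last. The control ranges overlapped between Egr1 and Nr4a1, Nr4a1 and Junb, Egr4 and Fos, and Fosb and Egr2, so these neighbours are not ordered beyond their spread. In Kdm1a-ifKOs the order by mean TPM was the same except that Junb with 97.3 ± 12.4 came before Nr4a1 with 89.2 ± 13.2 TPM.

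From mouse to mouse, the 10 genes largely rose and fell together. Among the 3 controls, 9 of the 10 were highest in replicate 1, against 30.2% of all tested genes, and Dusp1 was the exception, highest in replicate 2. Among the 3 Kdm1a-ifKOs, 10 of the 10 were highest in replicate 2, against 34.5% of tested genes. Both held for 9 genes and for 8.77% of tested genes. Of all 6 libraries, control replicate 1 was the highest for Junb, Egr1, Egr2, Arc and Nr4a1, and Kdm1a-ifKO replicate 2 for Fos, Fosb, Egr4, Dusp1 and Ier2. Within controls, replicate 1 exceeded the mean of the other two by 2.24-fold for Egr2, 1.55-fold for Arc, 1.43-fold for Egr1 and 1.36-fold for Junb. Within Kdm1a-ifKOs, replicate 2 exceeded the mean of the other two by 2.26-fold for Egr2, 1.96-fold for Fos, 1.59-fold for Dusp1 and 1.41-fold for Ier2. Averaged over the 10 genes, the deviation from the genotype mean on the log2 CPM scale was 0.27, -0.10 and -0.17 in controls and -0.18, 0.35 and -0.17 in Kdm1a-ifKOs.

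**Figure D3:**
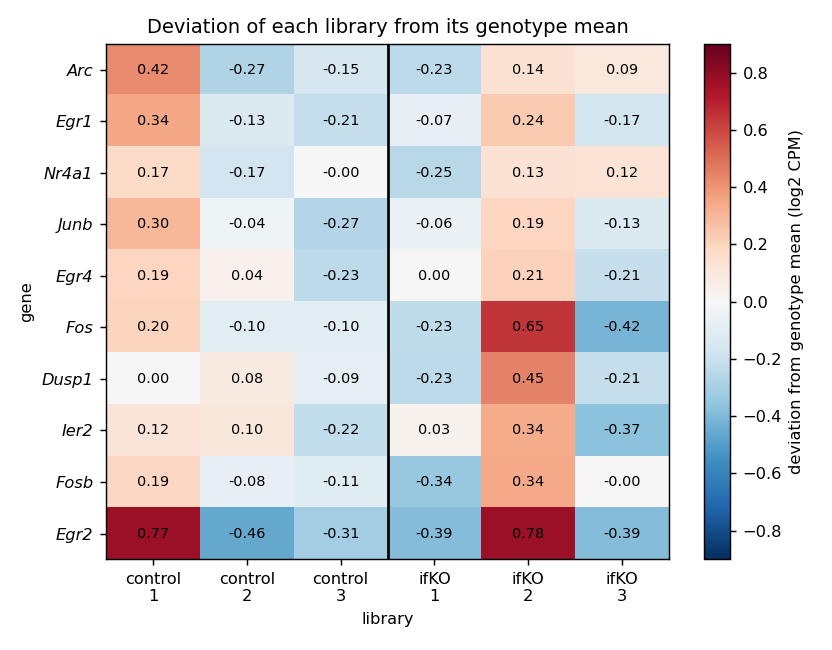
Deviation of each library from its genotype mean on the log2 CPM scale (colour and printed value) for the immediate early genes (rows) in the 6 libraries (columns, split by genotype). Control replicate 1 and Kdm1a-ifKO replicate 2 are positive for all 10 genes, from 0.004 for Dusp1 to 0.78 for Egr2.

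Correlations of log2 CPM were computed over the 6 libraries for all 45 pairs of the 10 genes, pooled over genotypes since 8 of the 10 genes overlapped between them. Pearson's r was over 0 for 39 pairs, with a median of 0.594 and a range from -0.596 to 0.914, and the median Spearman's rho was 0.6. The mean r over all pairs of tested genes was 0.0008. By exact permutation, 7 pairs had p under 0.05 for r and 4 for rho, and none had an adjusted p under 0.05 over the 45 pairs (lowest 0.188 for r and 0.375 for rho). The 6 libraries limit this test, as the smallest p that its 720 permutations can give for r is 0.00139. For rho the smallest p is larger. At these p a single pair alone would not pass the adjustment over 45 pairs. Leaving out the 2 libraries farthest from the median of the first gene of each pair lowered the median r to 0.347, with 32 pairs over 0. Without control replicate 1 and Kdm1a-ifKO replicate 2 together the median was 0.0383, so the median over 6 libraries depended on these 2. They were chosen after seeing that the genes peaked in them, so a lower r follows in part from the choice. With 2 libraries per genotype left, this describes the values and is not a test. With the genotype means subtracted, which leaves fewer degrees of freedom, the median r was 0.737 and 44 pairs were over 0, given as a description.

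Single pairs differed. Egr1 and Egr2 had r = 0.897 (exact permutation p = 0.00417, adjusted p = 0.188) and rho = 0.943 (exact permutation p = 0.0167, adjusted p = 0.375), with r = 0.726 without the 2 libraries farthest from the median of Egr1. Arc and Nr4a1 gave r = 0.914 (exact permutation p = 0.0319, adjusted p = 0.269) and rho = 0.829 (exact permutation p = 0.0583, adjusted p = 0.375), and r = 0.741 without the 2 libraries farthest from the median of Arc. At the other end, Nr4a1 and Ier2 gave r = -0.596 (exact permutation p = 0.217, adjusted p = 0.390) and rho = -0.657 (exact permutation p = 0.175, adjusted p = 0.375), with r = -0.747 in the 4 libraries kept. Their genotype differences point in opposite ways, and on deviations from the genotype means their r was -0.03. Nr4a1 followed the other 9 genes least closely, with a median pooled r of 0.293, and Fos most closely, with 0.719. With the genotype means subtracted, Nr4a1 again had the lowest median (0.454), and Egr2 the highest with 0.822, ahead of Fos and Egr1 with 0.786 each.

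The spread of the 10 genes between mice of a genotype is described by 2 measures. The chi-square per degree of freedom of the counts within genotypes, which is near 1 for counting error alone, had a median of 29.1 over the 10 genes and 2.01 over all tested genes, which differ in level. It was 209 for Arc and 106 for Egr1, the genes with the most counts, and 6.19 for Ier2. This measure grows with the number of counts, so it is not compared between genes of different level. The biological coefficient of variation (BCV, the edgeR estimate of spread beyond counting) was above the median of 0.0759 for 10 of the 10 genes, with a median of 0.15. Egr2 had the widest spread, with a BCV of 0.421 at percentile 99.5 of the tested genes, and Fos came next with 0.268 at percentile 98.3. Arc had 0.196. The smallest were Egr4 with 0.104 and Nr4a1 with 0.107, at percentiles 63.6 and 64.7. Kdm1a, for comparison, had a BCV of 0.0495.

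Markers of other cells moved with the same libraries in part. For the counts below, 30.2% of all tested genes were highest among controls in replicate 1. Among Kdm1a-ifKOs, 33.1%, 34.5% and 32.4% were highest in replicates 1, 2 and 3. Control replicate 1 and Kdm1a-ifKO replicate 2 were both highest for 8.77%. The summed level of 10 endothelial and mural markers was between 474 and 498 CPM in controls and was 460, 597 and 476 CPM in Kdm1a-ifKO replicates 1 to 3, with 10 of 10 markers highest in replicate 2 of the Kdm1a-ifKOs and 2 of 10 highest in replicate 1 of the controls. Acta2, the actin of vascular smooth muscle, had 44.5 CPM in Kdm1a-ifKO replicate 2 against 16.4 to 20.2 CPM elsewhere. Ttr, the choroid plexus transthyretin, had 32.0 CPM in control replicate 1 against 3.29 to 10.7 CPM in the other libraries. Of the 9 tested choroid plexus and ependyma markers to which it belongs, 7 were highest among controls in replicate 1, but 7 were highest among Kdm1a-ifKOs in replicate 3 and 1 in replicate 2. Kl of that list rose in Kdm1a-ifKOs (log2 fold change 1.28, adjusted p = 1.32e-07, edgeR) and Enkur was called lower. Of the 9 tested, 3 lay above 0 and 6 below (median log2 fold change -0.299), and Kcnj13 was too low to be tested. Over all tested genes, 6.04% were called higher and 2.82% lower. Of 5 blood markers, 4 were highest both in control replicate 1 and in Kdm1a-ifKO replicate 2, with summed levels from 33.5 to 44.2 CPM in controls and from 23.2 to 43.5 CPM in Kdm1a-ifKOs. Of 10 oligodendrocyte markers, 8 were highest in control replicate 1 and 6 in Kdm1a-ifKO replicate 2 within their genotypes (summed levels 5392 to 5935 and 5026 to 6500 CPM). Dentate granule cell markers were highest among Kdm1a-ifKOs in replicate 1 for 10 of 10 (905 CPM against 758 to 819 CPM in the others). Within Kdm1a-ifKOs, Arc, Nr4a1, Fosb and Dusp1 were lowest in that library, while Fos, Junb, Egr1, Egr4, Ier2 and, by a narrow margin, Egr2 were lowest in replicate 3. Microglia markers were higher in Kdm1a-ifKOs for 10 of 10, with 4 passing the test (Cx3cr1, Tmem119, Csf1r and C1qb), against 6.04% of all tested genes called higher. The 10 markers summed to 418 to 457 CPM in controls and 479 to 623 CPM in Kdm1a-ifKOs. The part of these cells in the values of the immediate early genes was not tested.

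Other genes of the rapid response were taken from a list of 40 by name, all tested. Of these, 3 rose (Jun, Ier3 and Zfp36) and 4 fell (Nr4a3, Dusp6, Rgs2 and Trib1), against 6.04% of all tested genes higher and 2.82% lower. The median log2 fold change was -0.08, and 14 of the 40 had no overlap between the groups, close to the 30.0% of all tested genes. Jun, the AP-1 partner of Fos, went from 92.6 ± 9.54 CPM (SD, n = 3 per group here and for the other genes) to 111 ± 7.35 CPM, a log2 fold change of 0.26 ± 0.0752 (adjusted p = 0.0497, edgeR), next to the threshold. Zfp36, which promotes the decay of RNAs with AU-rich elements, rose from 4.31 ± 0.809 to 6.51 ± 0.566 CPM (log2 fold change 0.59 ± 0.160, adjusted p = 0.0353, edgeR). Ier3, a gene linked to cell survival under stress, rose from 3.03 ± 0.495 to 4.84 ± 1.07 CPM (log2 fold change 0.67 ± 0.196, adjusted p = 0.0487, edgeR). Nr4a3, a close relative of Nr4a1, fell from 108 ± 6.24 to 84.3 ± 7.77 CPM, with a log2 fold change of -0.36 ± 0.0702 (adjusted p = 0.00671, edgeR) close to that of Nr4a1 (-0.35), with a smaller error. Dusp6, a cytoplasmic phosphatase of ERK, had a log2 fold change of -0.33 ± 0.0708 (adjusted p = 0.0115, edgeR). Trib1, a pseudokinase, fell by 0.43 on the log2 scale (adjusted p = 0.0199, edgeR), and Rgs2, a regulator of G protein signalling, fell by 0.22 (adjusted p = 0.0447, edgeR). Of 13 alternatives, the adjusted p was under 0.05 in 12 for Nr4a3, 11 for Dusp6, 10 for Trib1, 7 for Jun, 6 for Ier3, 5 for Zfp36 and 3 for Rgs2, and DESeq2 did not call Ier3, Zfp36 and Rgs2. Without Kdm1a-ifKO replicate 1, 1 of the 40 passed, and 3 passed without control replicate 1.

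Npas4, a neuronal activity factor of inhibitory synapse formation, had a pattern like that of Fos, with 23.0, 20.1 and 19.3 CPM in controls and 20.7, 45.5 and 17.9 CPM in Kdm1a-ifKOs. Kdm1a-ifKO replicate 2 stood apart from the other 5 libraries, and its log2 fold change of 0.43 ± 0.433 (adjusted p = 0.619, edgeR) was -0.11 without it. Egr3, which is induced with Egr1, had 60.4, 41.0 and 39.2 CPM in controls and 43.6, 47.8 and 40.2 CPM in Kdm1a-ifKOs (log2 fold change -0.10 ± 0.181, adjusted p = 0.797, edgeR), with its peak in control replicate 1. Npas4 had the highest correlation of the 40 with the mean deviation of the 10 immediate early genes (r = 0.870 over 6 libraries), and Jun (-0.415) and Nr4a3 (-0.339), which differed between genotypes, were among those with negative values. Of the 40, 24 were highest among controls in replicate 1, against 30.2% of all tested genes. Among Kdm1a-ifKOs, 17 were highest in replicate 2 and 19 in replicate 3, against 34.5% and 32.4% of tested genes. Control replicate 1 and Kdm1a-ifKO replicate 2 were both highest for 7 of the 40 and for 8.77% of tested genes. Homer1, a scaffold of the postsynaptic density, had a log2 fold change of -0.21 ± 0.0703 (adjusted p = 0.0807, edgeR).

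**Figure D4:**
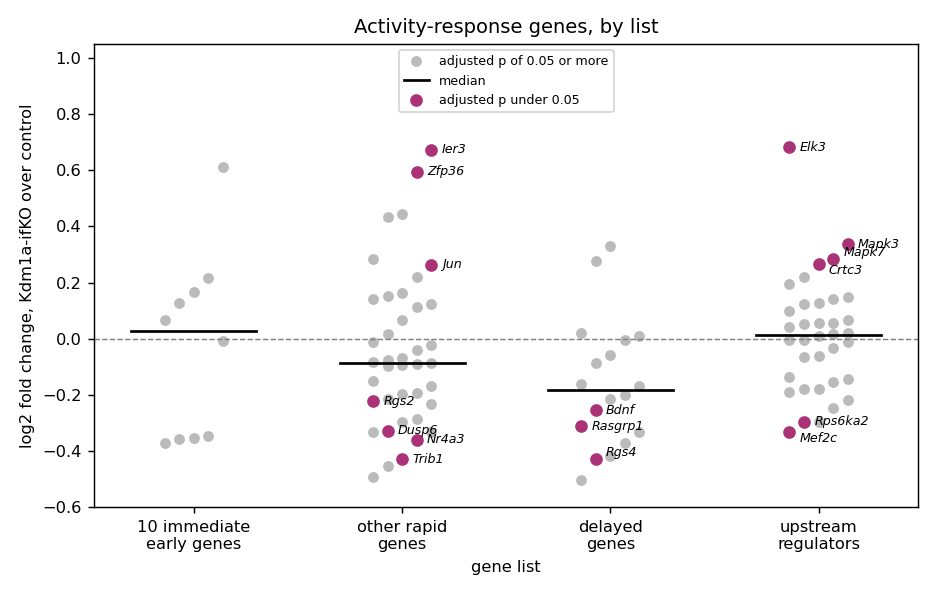
Log2 fold change of Kdm1a-ifKO over control (y axis) for each tested gene of the 4 lists (x axis), with genes of adjusted p under 0.05 (edgeR) in colour and named, and the median of each list as a line. The 10 immediate early genes hold no coloured point, and the medians are 0.03, -0.08, -0.18 and 0.01 from left to right.

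Of 19 delayed activity-induced genes, which depend on the products of the rapid ones or on lasting activity, 18 were tested and Serpinb2 was too low. None rose and 3 fell, Bdnf, Rasgrp1 and Rgs4, with a median log2 fold change of -0.18 and 14 of 18 below 0, while 8.85% of all tested genes were called and 2.82% were called lower. Neuronal markers fell in part as well, with 3 of 10 excitatory neuron markers called lower and 1 higher (median log2 fold change -0.16) and 8 of 10 interneuron markers below 0 with 2 called (median -0.14). Markers of dentate granule cells lay above 0 for 6 of 10 (1 called higher and 0 lower, median 0.04). Those of CA3 pyramidal cells lay above 0 for 6 of 8 (median 0.02) and those of CA1 for 4 of 9 (median -0.004), each with 1 called higher and 1 lower. Of the glial markers, 10 of 10 of the astrocyte list (3 called) and 10 of 10 of the microglia list (4 called) lay above 0. Of the oligodendrocyte list, 7 of 10 lay above 0 and 3 below, with 0 called (median 0.03). The part of these cells in the values of the delayed genes was not tested. Bdnf, the neurotrophin that strengthens synapses, fell from 53.4 ± 1.35 to 44.8 ± 3.24 CPM, a log2 fold change of -0.26 ± 0.0650 (adjusted p = 0.0273, edgeR). Rgs4, a regulator of G protein signalling, fell from 191 ± 1.25 to 142 ± 3.38 CPM (log2 fold change -0.43 ± 0.0481, adjusted p = 8.18e-05, edgeR). Rasgrp1, an activator of Ras, fell from 718 ± 35.0 to 578 ± 25.9 CPM (log2 fold change -0.31 ± 0.0539, adjusted p = 0.00267, edgeR). Rgs4 and Rasgrp1 had an adjusted p under 0.05 in 13 of 13 alternatives, and Bdnf in 8 of 13.

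Of 36 upstream regulators, 4 rose and 2 fell, against 6.04% and 2.82% of all tested genes, with a median log2 fold change of 0.01. Mapk3, the kinase ERK1, rose from 137 ± 7.19 to 173 ± 6.4 CPM (log2 fold change 0.34 ± 0.0555, adjusted p = 0.0019, edgeR). Elk3, an SRF partner that can act as a repressor, rose from 10.8 ± 0.657 to 17.3 ± 0.637 CPM (log2 fold change 0.68 ± 0.0891, adjusted p = 0.000305, edgeR). Mapk7, the kinase ERK5, rose by 0.28 on the log2 scale (adjusted p = 0.0174, edgeR) and Crtc3, a CREB coactivator, by 0.27 (adjusted p = 0.0221, edgeR). Mef2c, an activity-regulated transcription factor, fell by 0.33 (adjusted p = 0.0332, edgeR) and Rps6ka2, a kinase downstream of ERK, fell by 0.30 (adjusted p = 0.0166, edgeR). Over 13 alternatives the adjusted p was under 0.05 in 13 for Mapk3 and Elk3, in 10 for Mapk7 and Rps6ka2, in 9 for Crtc3 and in 8 for Mef2c. The factors that bind the motifs searched above were not called, with log2 fold changes of 0.06 ± 0.0688 for Srf (adjusted p = 0.657, edgeR) and -0.25 ± 0.0837 for Creb1 (adjusted p = 0.0916, edgeR). Creb1 was at -0.13 without control replicate 3 and at -0.31 without control replicate 2 (adjusted p = 0.0438, edgeR). Jun, Zfp36, Bdnf, Srf, Elk3, Crtc3 and Mapk7 overlap a gene on the opposite strand in the annotation, with the limit given for Junb.

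The genes most like the 10 between mice were sought among 11928 genes with a mean of at least 5 CPM, by the correlation of their deviations from the genotype means with the mean deviation of the 10. There were 53 with r of at least 0.95 over the 6 libraries, 0.444% of those searched. With the genotype means subtracted, the 6 libraries leave few degrees of freedom, so that some of so many genes reach such an r by chance. Whether there were more than chance gives was not tested, and the genes named below were picked by this r. The 15 with the widest deviations were Cbln1, Fhod3, Rnd1, Ecm1, Gsg1l, Gucy2g, Plxnd1, Necab3, Zdhhc12, Il15ra, Cldn5, Fa2h, Slc52a2, Vip and Rgs6. Cbln1, a secreted organiser of synapses, had the widest, with 7.16, 4.2 and 3.98 CPM in controls and 4.37, 9.65 and 4.01 CPM in Kdm1a-ifKOs (r = 0.992). The tight junction gene Cldn5 of endothelial cells (r = 0.956) and the myelin lipid enzyme Fa2h (r = 0.972) were also among the 15. Vip, an interneuron peptide, fell in Kdm1a-ifKOs (log2 fold change -0.46, adjusted p = 0.0122, edgeR), and for the other 14 the adjusted p was 0.196 or more (edgeR). Fhod3, an actin regulator, had r = 0.997, the highest of the 15.

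CTCF loops were available from 1 ChIA-PET library of sorted Camk2a+ hippocampal neuron nuclei, labelled WT and tamoxifen-treated, which pairs distant anchors and counts the paired-end tags (PETs) that join them. It held 27786 loops with a median of 5 PETs, and with 1 library no comparison between genotypes or test was possible. By the study's methods, such nuclei were sorted from mice that carry Camk2a-creERT2 and a CAG-Sun1/sfGFP nuclear reporter, so they come from another line than the RNA controls. All 10 immediate early genes had a loop anchor within 10 kb of the gene body, against 56.9% of tested genes. There were 8 of 10 within 2 kb, the exceptions being Fos and Nr4a1, and 7 of 10 with a loop of at least 10 PETs. Junb had the strongest loop, with 384 PETs over 16.4 kb between an anchor that spans the gene (chr8:84969433-84982228) and chr8:84984665-84999699. Nr4a1 had the most loops, 12 with 269 PETs in all, and the strongest of them had 152 PETs between anchors of chr15:101217811-101230329 and chr15:101234889-101245401, which lie before the gene. Fosb had 10 loops, of which the strongest joined chr7:19298988-19303728 at the end of the gene to chr7:19341103-19347677 with 79 PETs. Egr1 had 7 loops and 125 PETs, Egr4 4 loops and 44 PETs, Dusp1 4 loops and 23 PETs, and Fos 2 loops and 21 PETs. Egr2 had 2 loops of 9 and 5 PETs, which spanned 186 and 187 kb. Arc, the most abundant of the 10 per length, had 4 loops of at most 6 PETs, and Ier2, the gene closest to the threshold between genotypes, had 1 loop of 3 PETs, the fewest that the list holds.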

How the data were processed

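RNA-seq libraries of 3 control and 3 Kdm1a-ifKO hippocampi were used, with 1 CTCF ChIA-PET library for loops. The authors made the deposited read counts from poly-A reads trimmed with cutadapt 1.18, aligned with HISAT2 2.1.0 to mm10 (GRCm38) and counted per Ensembl gene with HTSeq 0.11.1 (versions from the submitters' processing notes). The values are whole-number counts without normalization. The deposited PET counts come from the authors' loop calling, which kept loops of at least 3 PETs. GENCODE M21 gave a symbol to 99.1% of 48795 genes and the positions.

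After filterByExpr and TMM normalization, 16799 genes were tested with the robust quasi-likelihood method of edgeR 4.0.16 in R 4.3.3. The model held genotype alone, p-values were adjusted by Benjamini-Hochberg over these genes, and the fit was tested on simulated data, where the share of false calls was somewhat above the nominal level, so calls next to the threshold are less firm. CPM used TMM library sizes, log2 CPM a prior count of 1. DESeq2 1.42.0, other normalizations and filters, a replicate block and libraries left out were alternatives. Correlations were tested by exact two-sided permutation in scipy 1.17.1. Same-numbered libraries did not deviate together (r = -0.0316, -0.0886 and -0.144). Nothing in the labels says which cages or days the mice came from. P-values thus cover the spread between these libraries.

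The 10 genes, the other lists and the tests were chosen with earlier results of these data known. Besides the 10 genes and Kdm1a, genes were named if their list is of activity genes and the adjusted p was under 0.05 (Npas4, Egr3, Jun, Bdnf, Homer1, Srf and Creb1 in any case), if they were cell type markers with an adjusted p under 0.05 or ones a result turns on, or if they were among the 15 most like the 10 genes.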

Additional observations from a re-analysis of the deposited data

How the results depend on the processing

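Of 130 fold changes of the 10 immediate early genes under alternatives, 109 kept their sign and side of the threshold, 12 changed sign and 9 came under an adjusted p of 0.05; none of the genes had been under it. The number of these genes under 0.05 was 0, and 1 with upper-quartile normalization, a sum of at least 10 counts, the replicate block or without both control replicate 1 and Kdm1a-ifKO replicate 2, 2 with DESeq2 or no filter on low counts, and 0 to 1 with 1 library left out. Genes higher in Kdm1a-ifKOs numbered 1014, 646 to 876 with 1 library left out and 671 without both libraries. Genes lower numbered 473, 1090 without a filter, 249 with the replicate block and 137 to 584 with 1 library left out. Of the other rapid genes 7 were called, 12 without a filter, 4 with the block, 1 without both libraries and 1 to 7 with 1 left out (1 without Kdm1a-ifKO replicate 1, 3 without control replicate 1). Of delayed genes 3 were called and 6 without a filter, and of upstream regulators 6, with 11 without a filter and 3 to 7 with 1 library left out (3 without Kdm1a-ifKO replicate 1 or 3). The median r of the 45 pairs was 0.594, 0.737 for deviations from genotype means, 0.0383 without both libraries and 0.463 to 0.646 with 1 left out.

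With 1 library left out, the log2 fold change ran from -0.34 to 0.26 for Fos, -0.02 to 0.32 for Fosb, -0.13 to 0.16 for Junb, -0.86 to 0.15 for Egr2, -0.04 to 0.34 for Dusp1, -0.11 to 0.67 for Npas4, -0.21 to 0.13 for Egr3 and -0.01 to 0.10 for Srf. Without both libraries it was 0.12 for Srf, -0.23 for Fos, 0.06 for Junb and Egr3, -0.04 for Dusp1 and -0.03 for Npas4. Junb was at 0.02 with upper-quartile normalization and 0.004 with the replicate block. The block changed the call of Ier2 (adjusted p = 0.022, edgeR). The replicate numbers are shared between genotypes without pairing the mice, and the blocked fit is given for that reason only here. Removing both libraries leaves 2 per genotype. The cause of the other changes was not tested. Egr2 and Ier2, with the fewest counts, had a chi-square per degree of freedom of 29.0 and 6.19, above the value near 1 of counting error alone. How far depth and the spread between the 3 libraries per genotype each set the width of the intervals was not tested.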
